A study of Mus musculus with 10 samples.

Results

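The 10 genes described here belong to the contacts between endothelial cells (ECs), and they were followed in dermal lymphatic ECs (LECs) and blood ECs (BECs) of the mouse ear skin. They were 10 of the 46517 Ensembl genes in the count tables, chosen by name and not by their values, and all 10 were measured. Cldn5 and Cldn11 encode claudins, which form the strands of tight junctions. Ocln encodes occludin, a further membrane protein of these strands, and Tjp1 encodes ZO-1, the scaffold that ties them to actin. F11r, Jam2 and Jam3 encode the junctional adhesion molecules JAM-A, JAM-B and JAM-C, and Esam encodes a related adhesion molecule of ECs. Cdh5 encodes VE-cadherin, the adherens junction cadherin of ECs, and Pecam1 encodes CD31, which ECs carry along their borders.

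ECs seal their borders with adherens junctions and tight junctions that are mixed along the same contact line. In lymphatic capillaries the line is broken into buttons with gaps through which fluid and cells enter, while collecting vessels have continuous zipper junctions. VE-cadherin and claudin-5 are found in both kinds of junction.

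The cells came from 5 mutant and 2 control mice, all 5 weeks old, and each plate of single sorted cells held 1 mouse. The mutant mice carried Pik3caH1047R, an activating form of the catalytic PI3K subunit, together with Cdh5-CreERT2, and their ears had been painted with 4-OHT at 3 weeks of age to start Cre. Control 1 was an untreated C57BL/6J mouse, and control 2 was a Cre- mouse of the mutant strain that had been given 4-OHT. A further Cre- mouse was not analysed here. The Cre is driven by the promoter of Cdh5, 1 of the 10 genes, so the mutation was targeted to ECs of both kinds. Sorting used antibodies to Podoplanin and to CD31, the product of Pecam1, so every cell had been picked for the protein of 1 of the 10 genes. The transcript of the mutant allele was not analysed here. By their plate numbers, both controls and mutant 5 belonged to 1 plate series and mutants 1 to 4 to another.

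Of 3456 wells, 3248 cells were kept, with a median of 250729 to 404517 reads per cell in the 7 mice, and 0 cell names were shared between plates. Cells were assigned by the summed CPM of marker genes, the read count of a gene scaled to all reads of the cell. LECs, 1641 cells, had at least 300 CPM of Prox1, Flt4 and Mmrn1 and more of these than of Flt1, Emcn and Podxl. BECs, 1542 cells, had more of the latter 3, and 65 cells had no class. Collecting LECs (189 cells) had more Mmrn2 than Lyve1, and Ptx3-rich LECs (544 cells) had at least 100 CPM of Ptx3. A sum of other LEC markers (Lyve1, Pdpn, Reln, Nr2f2 and Ccl21a) was 3399 to 5123 CPM in LECs and 163 to 599 CPM in BECs of the 7 mice. A sum of other BEC markers (Kdr, Cd34, Plvap, Sox17 and Cd36) was 5876 to 7083 CPM in BECs and 1308 to 2019 CPM in LECs. LECs carried Emcn at 299 to 505 CPM and Podxl at 172 to 272 CPM, and 58.6% to 66.9% of them reached 300 CPM for the genes of both rules, against 7.26% to 20.9% of BECs. Foxp2, the check for collecting LECs, was at 229 and 238 CPM there in the controls and 63.4 to 275 CPM in the mutants. In all LECs it was at 125 and 147 CPM in the controls and 17.4 to 88.0 CPM in the mutants. Itih5 and Mrc1, the check for Ptx3-rich LECs, summed to 213 to 757 CPM there. They summed to 158 to 264 CPM in all LECs and 252 to 640 CPM in BECs. Cells with at least 300 CPM of keratinocyte, fibroblast, mural, immune or Schwann cell genes made up 68.7% and 42.1% of BECs in the controls and 18.5% to 29.4% in the mutants. Among LECs they made up 26.8% and 15.4% in the controls and 7.07% to 13.2% in the mutants.

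Of the 10 members, 3 had a higher mean level in LECs than in BECs. The difference passed the edgeR test given below for Cldn5 and F11r but not for Cldn11. The promoters of these 3 members are shown first. They run from 250 bases before to 50 bases after the start, 5′ to 3′, from RefSeq on GRCm38.p6, and the CCAAT box, read on either strand as CCAAT or ATTGG, is in capitals. Cldn5 (ENSMUSG00000041378) has its promoter at chr16:18776597-18776896 on the plus strand, F11r (ENSMUSG00000038235) at chr1:171437311-171437610 on the plus strand and Cldn11 (ENSMUSG00000037625) at chr3:31149670-31149969 on the plus strand.
Cldn5: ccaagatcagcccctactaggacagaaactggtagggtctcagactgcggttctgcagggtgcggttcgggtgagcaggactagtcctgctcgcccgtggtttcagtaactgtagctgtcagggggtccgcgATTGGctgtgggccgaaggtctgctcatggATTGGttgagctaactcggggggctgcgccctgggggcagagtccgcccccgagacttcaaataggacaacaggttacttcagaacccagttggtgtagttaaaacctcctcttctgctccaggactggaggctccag
F11r: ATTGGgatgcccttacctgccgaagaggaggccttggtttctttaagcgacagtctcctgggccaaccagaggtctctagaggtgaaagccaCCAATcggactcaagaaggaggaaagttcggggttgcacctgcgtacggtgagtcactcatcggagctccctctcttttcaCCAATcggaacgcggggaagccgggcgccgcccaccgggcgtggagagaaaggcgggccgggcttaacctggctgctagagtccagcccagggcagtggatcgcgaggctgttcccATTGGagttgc
Cldn11: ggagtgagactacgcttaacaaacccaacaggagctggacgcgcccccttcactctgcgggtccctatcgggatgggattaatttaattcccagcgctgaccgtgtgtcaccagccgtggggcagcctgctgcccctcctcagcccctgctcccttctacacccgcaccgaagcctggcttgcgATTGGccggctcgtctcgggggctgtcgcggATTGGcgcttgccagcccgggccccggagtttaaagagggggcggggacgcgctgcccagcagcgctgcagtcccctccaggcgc
The Cldn5 window held 2 CCAAT boxes, the F11r window 4 and the Cldn11 window 2. At least 1 was found in 37.4% of the 32851 promoters of the same length in the table, and at least 2 in 11.7%. Each window also held 1 GGGCGG, the core of a GC box, which occurred on either strand in 35.7% of all promoters. GGAAG, the core bound by ETS factors, occurred in the F11r window and not in those of Cldn5 and Cldn11, against 71.4% of all promoters. None of the 3 windows held TATAAA, which 13.6% of promoters did. The motifs were chosen after these sequences were read. The table also held promoters of Ocln and Tjp1, 5 of the 10 members in all. The motifs of these 2 are not given here, and a link between motifs and levels was not tested.

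On GRCm38, the other members lay at chr8:104101625-104144511 (Cdh5, plus strand), chr11:106654217-106750628 (Pecam1, minus), chr7:65296165-65527781 (Tjp1, minus), chr13:100496507-100552718 (Ocln, minus), chr9:37528078-37538319 (Esam, plus), chr16:84774123-84825928 (Jam2, plus) and chr9:27097384-27155421 (Jam3, minus). The exons of 9 members overlapped no other annotated gene, and 36.2% of the exon bases of Jam3 were shared with Gm48796, so part of the Jam3 reads could belong to either.

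The level of each member in LECs and BECs was examined first, to see which junction genes the cells of each vessel type carry. On the length-corrected TPM scale, Cldn5 was the highest of the 10 in LECs, at 4393 ± 532 TPM (mean ± SD over 7 mice). It was followed by F11r (1207 ± 167 TPM), Pecam1 (636 ± 97.1 TPM), Cldn11 (228 ± 79.2 TPM), Esam (149 ± 27.1 TPM) and Cdh5 (145 ± 29.7 TPM). Tjp1, Jam3, Jam2 and Ocln came last, at 33.7 ± 8.12, 17.2 ± 4.34, 4.06 ± 4.46 and 0.347 ± 0.614 TPM. The ranges over mice of Cldn5, F11r, Pecam1 and Cldn11 did not touch one another. Those of Cldn11 and Esam overlapped, as did those of Esam and Cdh5 and of each neighbouring pair from Tjp1 down. In BECs the order was Cldn5 (1788 ± 279 TPM), Esam (1592 ± 223 TPM), Pecam1 (1084 ± 160 TPM), F11r (851 ± 121 TPM), Cdh5 (350.0 ± 39.5 TPM), Jam2 (329 ± 58.2 TPM), Jam3 (125 ± 41.9 TPM), Cldn11 (87.3 ± 53.5 TPM), Tjp1 (59.8 ± 10.95 TPM) and Ocln (1.396 ± 1.421 TPM). Neighbours in this order overlapped except F11r with Cdh5, Jam2 with Jam3 and Tjp1 with Ocln. All values from here on are CPM of the reads summed over the cells of a class in a mouse. In such a sum, fewer cells with a transcript and less of it per cell cannot be told apart, so shares of cells are given beside the sums where they bear on a result.

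**Figure D1:**
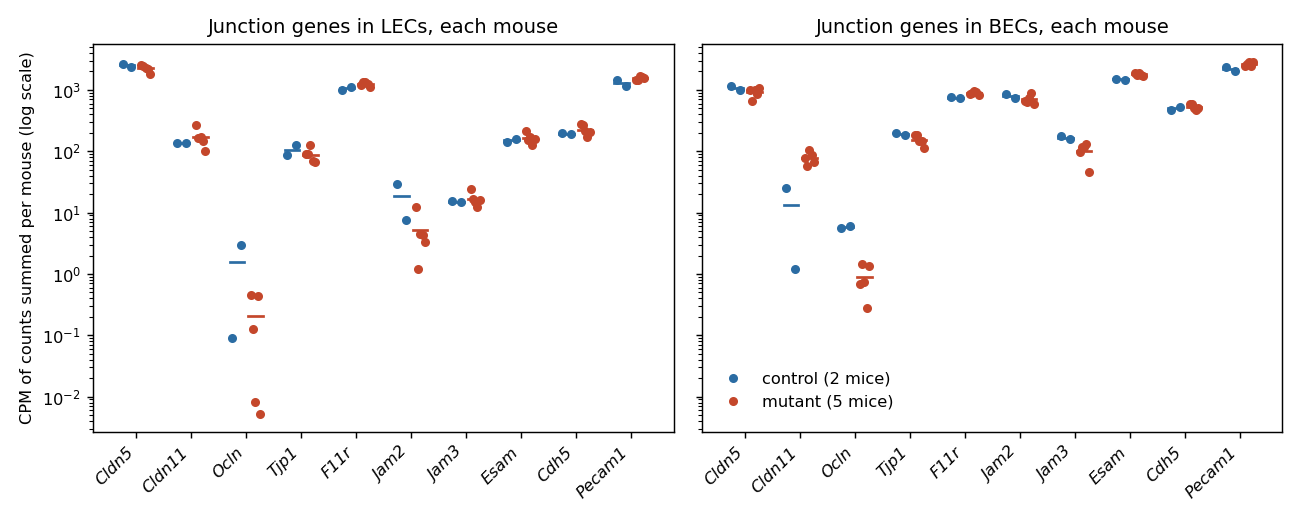
CPM of the 10 genes in the summed LECs (left) and BECs (right) of each mouse on a log scale, with control mice in blue, mutant mice in red and bars at the group means. Cldn5 lies near the top in both panels, Ocln at the bottom, and Jam2 at 586 to 883 CPM in BECs but at 1.22 to 29.7 CPM in LECs.

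Of the 10 genes, 2 were higher and 6 lower in LECs than in BECs of the same mouse. edgeR's quasi-likelihood test with the mouse as a block called 26.5% of the 17657 genes tested in this comparison, 14.3% higher and 12.2% lower in LECs, at an adjusted p under 0.05. The median log2 difference of the 10 was -1.07, and that of all genes tested 0.03. Of the 10, 9 went the same way in all 7 mice, as did 24.8% of all genes tested. The exception was Ocln. All 8 calls were kept under each of the 18 alternative settings run for this comparison.

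Both claudins read higher in LECs. Cldn5 was at 2633 and 2378 CPM in the LECs of controls 1 and 2 and at 2559.7, 2429, 2292, 2199.7 and 1848 CPM in those of mutants 1 to 5. In BECs it was at 1149.8 and 986 CPM in the controls and 987, 659, 989.9, 851 and 1062 CPM in the mutants. The 2 classes did not overlap, and Cldn5 was 2.47-fold higher in LECs (log2 1.30, SE 0.11, adjusted p = 3.17e-05). After thinning to 50000 reads, a read of Cldn5 was found in all LECs and in 85.9% to 100.0% of BECs.

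Cldn11, known as the claudin of oligodendrocyte myelin and of Sertoli cells, was at 138 and 136 CPM in control LECs and at 267, 164, 169, 145 and 99.4 CPM in mutant LECs. In BECs the values were 24.97 and 1.21 CPM in the controls and 77.5, 57.9, 105, 87.7 and 66.1 CPM in the mutants. It read higher in LECs in 7 of 7 mice, by a log2 of 1.76 (SE 0.64), but missed the threshold (adjusted p = 0.0752). DESeq2, thinned cells and the fit without control 2 put it past the threshold (range of adjusted p over the alternatives 0.00874 to 0.197).

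Ocln was close to absent. LECs had 0.0894 and 2.99 CPM of Ocln in the controls and 0.00515 to 0.449 CPM in the mutants, and BECs 5.55 and 6.09 CPM and 0.279 to 1.45 CPM. At most 2.45% of the BECs and 1.71% of the LECs of any mouse had an Ocln read after thinning. Among the genes most like Ocln across LECs were Serpinb5 and Aqp3 (mean Pearson r within mice 0.24 and 0.23), both of which epithelial cells carry. Keratinocyte genes (Krt5, Krt14, Krt10, Krt1, Perp and Dsp) summed to 66.1 to 425 CPM in the LECs of the 7 mice, and all 6 were found. Without cells that carried genes of other cell types, 26 of the 252 Ocln reads of LECs were left, too few to be tested. In BECs 539 of 845 Ocln reads were left, with 3 to 237 in each of the 7 mice. The source of the Ocln reads was not tested. The scaffold Tjp1 was lower in LECs than in BECs, with 93.5 ± 23.8 against 166 ± 31.0 CPM (n = 7 mice), by 0.84 on the log2 scale (SE 0.12, adjusted p = 0.000959).

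The junctional adhesion molecules divided. F11r, which is also found on platelets and epithelium, was at 1007 and 1135 CPM in control LECs and at 1197, 1373, 1364, 1251 and 1116 CPM in mutant LECs. In BECs it was at 767 and 730.4 CPM and at 859, 894, 948, 932 and 823 CPM. It was higher in the LECs of all 7 mice, 1.42-fold (log2 0.51, SE 0.05, adjusted p = 0.000147).
Jam2 ran the other way, with 872 and 726 CPM in control BECs and 658, 636, 731, 883 and 586 CPM in mutant BECs, but 29.7 and 7.51 CPM in control LECs and 12.5, 1.22, 4.51, 4.27 and 3.27 CPM in mutant LECs. The 2 classes were far apart, and Jam2 was 122-fold lower in LECs (log2 -6.94, SE 0.54, adjusted p = 2.10e-05). Jam2 reached 100 CPM in 69.7% to 84.0% of BECs and in at most 2.73% of LECs. Its most like genes across LECs were Sparcl1, Ly6c1 and Scarb1 (mean r 0.38, 0.33 and 0.31). Jam3 was lower in LECs as well, at 16.4 ± 3.899 against 120.3 ± 42.0 CPM (log2 -2.81, SE 0.26, adjusted p = 6.35e-05).

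Esam had the lowest adjusted p of the 10 between LECs and BECs. It was at 139 and 161 CPM in control LECs and at 213, 156, 169, 126 and 157 CPM in mutant LECs. In BECs it was at 1530.2 and 1449 CPM and at 1864, 1783, 1912, 1751 and 1702 CPM. Esam was 10.7-fold lower in LECs (log2 -3.43, SE 0.09, adjusted p = 3.19e-07).
Cdh5 was at 197 and 191 CPM in control LECs and at 276, 265, 212, 169 and 204 CPM in mutant LECs, and its BEC values of 465 to 594 CPM lay above all of these. It was 2.44-fold lower in LECs (log2 -1.29, SE 0.07, adjusted p = 3.47e-06). Pecam1 was at 1143 to 1702 CPM in LECs and 2059.7 to 2896 CPM in BECs, 1.71-fold lower in LECs (log2 -0.77, SE 0.06, adjusted p = 2.00e-05). Both had a read in most cells, since at least 85.7% of LECs and 93.3% of BECs held Cdh5 and at least 99.4% of either class held Pecam1, for whose protein they had been sorted.

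Genes of the same junctions were split between the classes. Of 12 tight junction scaffold genes tested, 4 were higher in LECs and 1 lower, and the median log2 difference of the list was 0.58. Cgnl1, paracingulin, was at 137 ± 69.0 CPM in LECs and 23.6 ± 11.02 CPM in BECs (log2 2.50, SE 0.40, adjusted p = 0.00155), and Pard3, a polarity protein, at 32.9 ± 9.18 and 6.31 ± 2.72 CPM (log2 2.46, SE 0.26, adjusted p = 0.000138). Of 19 adherens junction genes tested, 5 were higher and 10 lower, with a median of -0.30. Of 15 other endothelial contact genes tested, 3 were higher and 7 lower, with a median of -0.24. In that list the gap junction gene Gja4 (connexin 37) was higher in LECs at 504 ± 165 against 154 ± 75.4 CPM (log2 1.76, SE 0.28, adjusted p = 0.00141). Nrp1, a VEGF co-receptor, was at 12.0 ± 17.0 CPM in LECs and 711 ± 165 CPM in BECs (log2 -6.61, SE 0.50), and the protocadherin Pcdh17 at 6.10 ± 5.03 and 72.4 ± 17.6 CPM (log2 -4.01, SE 0.59). Of 23 other claudins, 6 could be tested, of which 1 was higher and 1 lower. The lower was Cldn15, at 2.24 ± 2.28 CPM in LECs against 116 ± 44.7 CPM in BECs (log2 -6.20, SE 0.64). The higher was Cldn4, named after its value was seen, since it is low in both classes.

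Within LECs, 3 of the 9 members tested were higher in collecting LECs than in the other LECs of the same mouse and 0 were lower, where edgeR called 2.81% of 14959 genes, 1.42% higher and 1.38% lower. The median log2 difference of all genes tested was -0.21, and that of the 9 members 0.38. Ocln had too few reads to be tested. Cldn5 was at 2744 and 2439.8 CPM in the collecting LECs of the controls and at 2982, 2978, 2660.3, 2820.4 and 2158 CPM in those of the mutants. In the other LECs it was at 2613, 2371, 2459, 2343, 2248, 2126 and 1838 CPM in the same order of mice. Every mouse had the higher value in its collecting LECs, a direction shared by all mice for 2 of the 9 members and 7.67% of genes (1.95% higher and 5.73% lower). The difference was 1.29-fold (log2 0.36, SE 0.06, adjusted p = 0.00846). Pecam1 was also higher in 7 of 7 mice (log2 0.38, SE 0.07, adjusted p = 0.0215) and Esam in 6 of 7 (log2 0.82, SE 0.19, adjusted p = 0.0488). The Pecam1 call was lost without mutant 1, 3 or 5, and the Esam call without control 1, control 2 or mutant 1, 2, 3 or 5 (adjusted p up to 0.0725 and 0.116). When cells that met both the LEC and the BEC marker limits were left out, the log2 differences were 0.42 for Cldn5, 0.38 for Pecam1 and 1.32 for Esam, and 0 of the 3 calls held (adjusted p = 0.528 for each), with 3 mutants and 0 controls still holding 5 collecting LECs. Such cells made up 76.9% to 89.3% of collecting LECs.

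Some other contact genes also differed in collecting LECs. Of the lists, 3 of 12 scaffold genes, 2 of 19 adherens junction genes and 3 of 15 other contact genes were higher and 0 were lower. Amotl2, an angiomotin that binds junctional actin, was at 189 ± 56.1 against 74.4 ± 15.4 CPM (log2 1.45, SE 0.18, adjusted p = 0.00314), and Mpdz, a multi-PDZ scaffold, at 79.4 ± 23.2 against 39.3 ± 5.93 CPM (log2 1.11, SE 0.21, adjusted p = 0.0235). Tek, the receptor TIE2, was at 418 ± 67.6 against 200.1 ± 30.4 CPM (log2 1.19, SE 0.09, adjusted p = 0.000206). None of 5 other claudins was called. The median log2 difference was -0.05 over the scaffold genes, 0.18 over the adherens junction genes, 0.30 over the other contact genes and -0.94 over the other claudins, beside -0.21 for all genes. Without cells that met both marker limits, 0 of the 8 calls held, and on first plates 2 did.

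Ptx3-rich LECs had less Cldn11 than the other LECs. Of the 9 members tested, 1 was lower and 0 were higher, where edgeR called 1.59% of 15751 genes lower and 1.17% higher. Cldn11 was at 51.5 and 7.66 CPM in the Ptx3-rich LECs of the controls and at 149, 53.4, 91.5, 88.4 and 37.4 CPM in those of the mutants. In the other LECs it was at 145, 184, 338, 223, 217, 199 and 158 CPM in the same order, higher in 7 of 7 mice. The difference was 3.63-fold (log2 -1.86, SE 0.38, adjusted p = 0.0339), and it missed the threshold when any 1 of the 5 mutants was left out (adjusted p up to 0.113) and when Ptx3-rich LECs were defined from 200 CPM. Cldn5, Pecam1, Tjp1 and Esam also read lower in 7 of 7 Ptx3-rich sums, by log2 values of -0.20, -0.23, -0.35 and -0.86, without passing the test (adjusted p 0.0576 to 0.173). In all, 5 of 9 members read lower in every mouse, and 0 higher, against 5.49% and 3.28% of genes, 8.77% in either direction. The median of the 9 was -0.35 and that of all genes -0.08. Among the other contact genes Icam2, a ligand of leukocyte integrins, was higher (log2 0.54, SE 0.09, adjusted p = 0.0118). Tek (log2 -1.29, SE 0.16), Gja4 (log2 -0.93, SE 0.18) and the cadherin gene Cdh13 (log2 -0.77, SE 0.12) were lower, with adjusted p values of 0.00451, 0.0255 and 0.0109. Without cells that met both marker limits, Cdh13 was still called (adjusted p = 0.0218), and Icam2, Tek and Gja4 were not (0.198, 0.190 and 0.144).

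**Figure D2:**
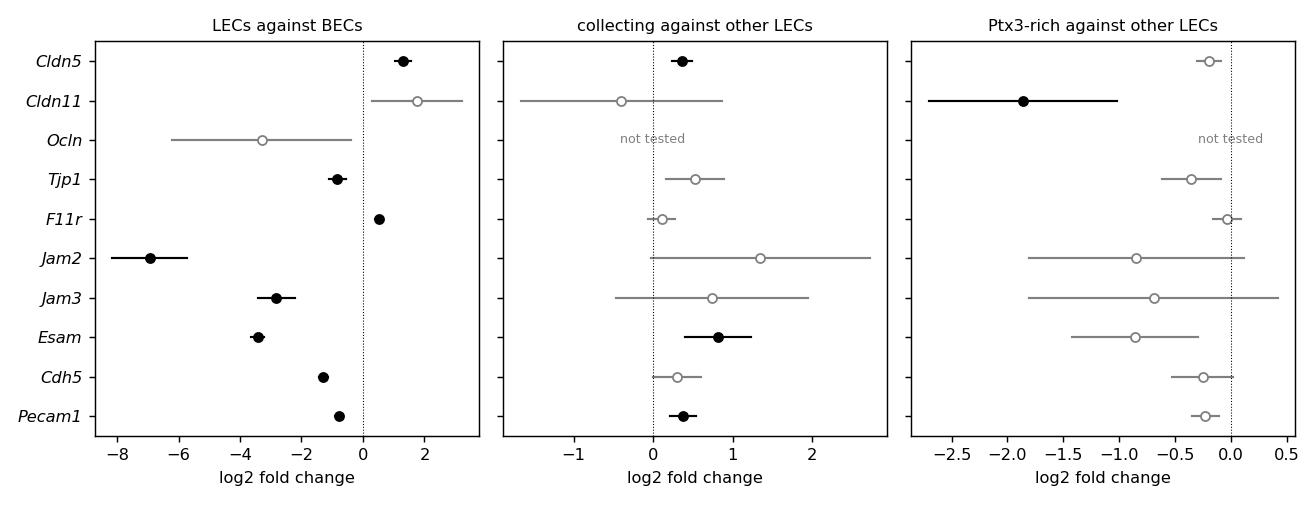
Log2 fold change and its 95% confidence interval for each gene between cell classes of the same mouse, from edgeR with the mouse as a block (7 mice). Filled points passed an adjusted p under 0.05: 8 genes between LECs and BECs, 3 in collecting LECs and Cldn11 in Ptx3-rich LECs.

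The sums of Cldn11 came from few cells. Cells with at least 100 CPM of Cldn11, called Cldn11-rich here, held 95.7% to 98.7% of all Cldn11 reads of LECs while making up 12.6% to 31.5% of the cells. The Cldn11-rich LECs averaged 808 ± 181 CPM and the other LECs 5.05 ± 2.64 CPM (n = 7 mice). The genes most like Cldn11 across LECs were Sbspon, Gdf10 and Gm37509 (mean r 0.39, 0.38 and 0.37 over 1641 cells).

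Cldn11-rich LECs carried more of the valve genes Foxc2 and Gata2, transcription factors of lymphatic valve formation, and less of the capillary receptor Lyve1. This is a description of cells split on Cldn11, without a test. Foxc2 was at 316, 186, 323, 314, 241, 248 and 373 CPM in the Cldn11-rich LECs of control 1, control 2 and mutants 1 to 5. In the other LECs it was at 107, 88.1, 175, 107, 145, 106 and 101 CPM. Every Cldn11-rich value thus lay above every other value. Gata2 was at 284 to 417 against 111 to 245 CPM, and Gja4, which valves also carry, at 500.1 to 1211 against 186 to 526 CPM. Of the LEC markers of the rule, Prox1 was at 505 to 948 against 275 to 439 CPM, but Flt4 was lower in 7 of 7 mice (1517 ± 196 against 1891 ± 207 CPM) and Mmrn1 in 6 of 7 (1912 ± 573 against 2657 ± 747 CPM). Esam was higher in the Cldn11-rich LECs of 7 of 7 mice, at 200 to 384 against 103 to 155 CPM, and Cldn5 in 7 of 7, at 2038 to 3156 against 1817 to 2548 CPM. Lyve1 was lower in 7 of 7, at 286 to 1531 against 1499 to 2744 CPM. Itga9, an integrin of valve leaflets, was higher in 4 and lower in 3 mice, so not all valve genes followed Cldn11. The valve gene Tbx1 was higher in 6 of 7 mice, by a mean log2 difference of 0.46. The differences of the other members were smaller than that of Esam (1.23). Cldn5 (0.21) and F11r (0.16) were higher in 7 of 7 mice and Pecam1 (0.06) in 6 of 7, and Cdh5 (-0.11) was lower in 6 of 7.

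**Figure D3:**
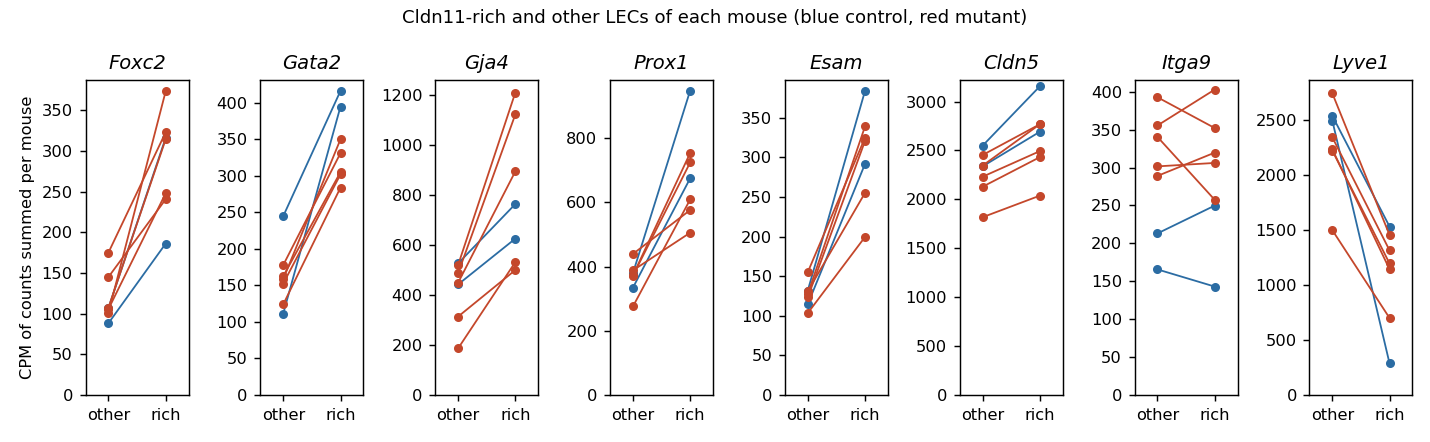
CPM of 8 genes in Cldn11-rich LECs (at least 100 CPM of Cldn11) and in the other LECs of each mouse, joined by lines, with control mice in blue and mutant mice in red. Foxc2, Gata2, Gja4, Prox1, Esam and Cldn5 rise in all 7 mice, Lyve1 falls in all 7 and Itga9 does both.

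The Cldn11-rich share was then compared between genotypes. Among LECs it was 13.7% (95% Wilson interval 9.43% to 19.4%) and 12.6% (8.45% to 18.3%) in the controls and 31.5%, 20.3%, 21.8%, 23.6% and 13.6% in mutants 1 to 5. The mutant mean was 9.05 points higher, a difference that 4 of 5 mutants showed, and a two-sided exact permutation test over the 21 splits of the mice gave p = 0.190, where 0.0952 is the smallest p possible. Mutant 5, which shares its plate series with both controls, was 0.508 points above their mean, and the plate series and the genotype cannot be told apart for the other 4 mutants.
Among BECs the share was 1.84% (0.628% to 5.27%) in control 1 and 0 of 164 cells in control 2, which allows a share of up to 1.83% by 3 counts (Wilson upper limit 2.29%), against 12.8%, 5.98%, 13.2%, 9.63% and 10.1% in the mutants. All 5 mutants lay above both controls, by 9.43 points on average (exact permutation p = 0.0952, the smallest possible, and 0.190 adjusted over the 4 classes). Mutant 5 was 9.17 points above the controls of its own plate series. In collecting LECs the share was 3.57% (1 of 28 cells) and 5.26% (1 of 19) in the controls and 42.1%, 18.5%, 31.7%, 43.5% and 23.1% in the mutants. The mean difference was 27.4 points (exact permutation p = 0.0952, adjusted 0.190), and it was 18.7 points for mutant 5 alone (3 of 13 cells). On first plates only it was 25.3 points, with 4 of 5 mutants above both controls and 1 at 0% (exact permutation p = 0.286). Foxp2, the check for this class, was at 229 and 238 CPM in the collecting LECs of the controls. It was at 105, 275, 212, 147 and 63.4 CPM in those of mutants 1 to 5. Whether the class held the same kinds of cells in both genotypes was not tested. In Ptx3-rich LECs the shares were 8.33% and 2.27% against 8.02% to 27.4% (exact permutation p = 0.190). The shares outside LECs were chosen after the values were seen, and no class could reach a p of 0.05 with 5 against 2 mice.

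Cldn11-rich BECs differed from other BECs in markers of both lineages. In the mutants they carried Emcn at 1314 to 1837 CPM, above the 872 to 1179 CPM of the other BECs. Of the other BEC markers of the rule, Flt1 was lower in 5 of 5 mutants (262 to 436 against 534 to 764 CPM) and so was Podxl (mean 146 against 281 CPM). The LEC gene Prox1 was at 21.4 to 176 CPM, below its 505 to 948 CPM in Cldn11-rich LECs. It was above the other BECs in 4 of 5 mutants (mean 60.4 against 9.47 CPM). Flt4 was lower in 5 of 5 mutants (8.83 to 73.3 against 62.5 to 95.4 CPM). Mmrn1 was higher in 2 and lower in 3, and Lyve1 was lower in 4 of 5. Of the valve genes, Foxc2 was higher in 4 of 5 (mean 37.9 against 7.77 CPM) and Gja4 lower in 4 of 5 (mean 70.5 against 130 CPM). Gata2 and Tbx1 were higher in 2 and lower in 3, and Itga9 was higher in 3 and lower in 2. These are descriptions without a test. Their Cldn5 was low, at 240 to 644 CPM in the mutants against 679 to 1145 CPM in the other BECs of those mice. It was lower in 5 of 5 mutants, where Cldn5 of Cldn11-rich LECs was the higher part in 7 of 7 mice. Of the 130 Cldn11-rich mutant BECs, 13 met both marker limits.

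None of the 10 members passed the test between mutant and control LECs. edgeR called 2.76% of 19753 genes in this comparison, 1.96% higher and 0.805% lower. DESeq2 called 0 members too, and 12.5% of the genes. At an unadjusted p under 0.05 there were 2 members, F11r (log2 0.28, SE 0.12, adjusted p = 0.234) and Jam2 (log2 -1.85, SE 0.79, adjusted p = 0.239). So were 3963 of the 19753 genes tested, a like share. Pecam1 was the only member whose mutant LECs all lay above both controls, at 1439.7 to 1702 against 1438 and 1143 CPM (log2 0.32, SE 0.14, adjusted p = 0.255), where the groups of 25.2% of genes did not overlap. Cldn5 differed by a log2 of -0.10 (95% interval -0.40 to 0.20), Cdh5 by 0.26 (-0.19 to 0.71), Tjp1 by -0.21 (-0.82 to 0.40) and Esam by 0.17 (-0.26 to 0.61). Cldn11 differed by 0.34 (-0.38 to 1.07), and by -0.41 between mutant 5 and the controls on plates of the same series. The median of the 10 was 0.18 and that of all genes -0.01.

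Some other contact genes passed the test in LECs, most of them not under every alternative. The gene for paracingulin, Cgnl1, was at 122 to 243 CPM in the mutants and 39.6 and 67.5 CPM in the controls (log2 1.73, SE 0.31, adjusted p = 0.0305), the only 1 of 15 scaffold genes called. Of 15 other contact genes 3 were higher, among them Cd34, a sialomucin, at 355 to 624 against 29.4 and 70.2 CPM (log2 3.22, SE 0.43, adjusted p = 0.0134) and the protocadherin Pcdh12 at 71.7 to 162 against 19.4 and 36.4 CPM (log2 1.99, SE 0.40, adjusted p = 0.0403). The third was Mcam (log2 1.07), and Vcl, vinculin, was the only 1 of 20 adherens junction genes called (log2 0.89). These 2 are named after their values were seen. None of 9 other claudins passed. Cycling cells made up 0.546% and 1.71% of control LECs and 9.89% to 23.4% of mutant LECs, and without them 1 of the 5 calls held, Cd34 (log2 3.00, adjusted p = 0.0313). The calls numbered 3 with the plate series as a covariate, 0 on the plate series of the controls, 1 without cells that met both marker limits, and 1 to 4 with 1 mouse left out. Over all genes the calls went from 546 to 142 without cycling cells, 178 with the covariate and 3 on those plates. The plate series and the genotype cannot be told apart for mutants 1 to 4. Cd34, which belongs to the BEC check, passed under 17 of 19 alternatives (log2 2.48 to 4.07), not on the plates of the controls (adjusted p = 0.167) or with the replicate block (0.109). The summed BEC check was 1308 to 1572 CPM in control LECs and 1582 to 2019 CPM in mutant LECs, and the summed LEC check 4937 to 5123 against 3399 to 4358 CPM. The part of these marker levels in the results was not tested.

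In BECs, edgeR called 0 of the 10 members and 1.86% of 19518 genes, 1.36% higher and 0.507% lower. DESeq2 called 1 member, Ocln, and 11.1% of the genes. Of the 10, 5 had an unadjusted p under 0.05, beside 3744 of the 19518 genes tested. Cldn11 was at 57.9 to 105 CPM in the mutants against 24.97 and 1.21 CPM in the controls, 6.22-fold higher (log2 2.64, SE 0.94, adjusted p = 0.187). With 1 control left the value depended on which: it was 6.12 (adjusted p = 0.0137) without control 1 and 1.71 (SE 0.37, adjusted p = 0.101) without control 2. Without cells that met both marker limits it was 4.25, with an adjusted p of 0.0252. Ocln was at 0.279 to 1.45 CPM against 5.55 and 6.09 CPM (log2 -2.61, SE 0.71, adjusted p = 0.107). Esam (log2 0.34, SE 0.11), Pecam1 (log2 0.33, SE 0.12) and F11r (log2 0.31, SE 0.12) lay above both controls in all 5 mutants, with adjusted p values of 0.151, 0.199 and 0.204. Jam3 lay below both controls in all 5, at 46.2 to 129.5 against 175 and 159.6 CPM (log2 -0.66, SE 0.34, adjusted p = 0.333). In all, the groups of 6 of 10 members did not overlap, against 24.9% of genes.

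Fibroblast and mural genes were higher in the BECs of both controls than in those of any mutant, while keratinocyte genes overlapped between the genotypes. The 6 keratinocyte genes, all found in both controls, summed to 670 and 573 CPM there and 10.4 to 996 CPM in the mutants. The 5 fibroblast genes (Col1a1, Col1a2, Dcn, Lum and Pdgfra) summed to 769 and 570.3 CPM in the controls and 12.8 to 53.8 CPM in the mutants, and the 5 mural genes (Acta2, Tagln, Rgs5, Pdgfrb and Notch3) to 887 and 551 CPM and 156 to 449 CPM, with Notch3 at 0 in mutant 2. Immune genes summed to at most 30.0 CPM with Ptprc at most 0.294 CPM, and Schwann cell genes to at most 92.8 CPM. Without the cells that carried 300 CPM of any of these lists, the Esam, Pecam1 and F11r values became 0.18, 0.14 and 0.05, and the Ocln and Cldn11 values -4.84 and 3.51.

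Among the other contact genes in BECs, Nectin2, a nectin of adherens junctions, was higher in the mutants (292 ± 25.1 against 153 ± 0.196 CPM, log2 0.99, SE 0.14, adjusted p = 0.0148), the only 1 of 20 adherens junction genes called. Gja1, connexin 43, was lower (143 ± 20.4 against 349 ± 17.9 CPM, log2 -1.23, SE 0.15, adjusted p = 0.00978), the only 1 of 16 other contact genes called. None of 13 scaffold genes and 9 other claudins passed. With the plate series as a covariate neither call held (adjusted p = 0.0811 for Nectin2 and 0.165 for Gja1), nor did they without control 2 (0.0653 and 0.0529), and Nectin2 was also lost without control 1 (0.0539).

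In collecting LECs, edgeR called 0 of 9 members and 0.00% of 13720 genes, of which 1019 had an unadjusted p under 0.05, while DESeq2 called 327 genes. Cldn11 had the lowest p of the 9. It was at 24.9 and 13.7 CPM in the controls and at 304, 95.6, 312, 283 and 103 CPM in the mutants, so its groups did not overlap. This held for 3 of the 9 members and 13.3% of genes, 6.13% with higher and 7.14% with lower mutants. The Cldn11 difference was 11.4-fold (log2 3.51, SE 0.66, unadjusted p = 0.000324), with an adjusted p of 0.407 from edgeR and 2.02e-07 from DESeq2. Over the 19 alternatives the log2 value ran from 2.45 to 4.40 and the adjusted p from 2.02e-07 to 0.882. The lowest value, 2.45, came from mutant 5 and the controls alone. The control sums held 28 and 19 cells, with 1 Cldn11-rich cell each. Foxp2 was at 229 and 238 CPM in these sums and at 63.4 to 275 CPM in the mutant ones. A change in the make-up of the class was not tested. Jam2 read lower in the mutants (0.931 to 32.6 against 39.6 and 73.1 CPM, log2 -2.45, SE 1.14, adjusted p = 0.677), and the other 7 differed by log2 values of -0.82 to 0.28. Fibroblast genes summed to 65.9 and 97.1 CPM in the control collecting LECs and 2.53 to 1748 CPM in the mutant ones, and keratinocyte genes to 149 and 179 against 22.9 to 966 CPM. Without the cells that carried such genes the Cldn11 value was 3.23. None of 48 other contact genes tested passed.

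In Ptx3-rich LECs, 0 of 9 members passed in edgeR and in DESeq2. Of 16756 genes, edgeR called 5.03%, 2.82% higher and 2.21% lower, and DESeq2 called 17.5%. Pecam1 had the lowest p. It was at 1041 and 964 CPM in the controls and at 1326, 1269.7, 1620.4, 1462 and 1506 CPM in the mutants, with no overlap (log2 0.47, SE 0.15, adjusted p = 0.1004), as for 28.7% of genes and, with higher mutants, 17.1%. Control 1 had 12 such cells and control 2 had 44. Esam, at 21.2 CPM in control 1 and 115 CPM in control 2, differed by 0.89 (SE 0.53). It differed by 0.20 (adjusted p = 0.730) without control 1 and by 2.50 (adjusted p = 0.00707) without control 2, where the 12 cells of control 1 were the only control sum and 23.5% of genes were called. Cldn11 differed by 1.41 (SE 0.79, adjusted p = 0.305). Without cells that carried genes of other cell types it differed by 3.17 (adjusted p = 0.0335), and by 0.24 between mutant 5 and the controls. Of the other contact genes, Cd34 (709 ± 96.9 against 14.6 ± 8.27 CPM, log2 5.58, SE 0.44, adjusted p = 0.00318) and Cgnl1 (207 ± 47.7 against 36.5 ± 30.9 CPM, log2 2.49, SE 0.49, adjusted p = 0.0284) were higher. Gja1 was lower (152 ± 16.6 against 411 ± 41.8 CPM, log2 -1.49, SE 0.18, adjusted p = 0.00870). With the plate series as a covariate Cd34 was called (adjusted p = 0.0161), and Cgnl1 and Gja1 were not (0.135 and 0.116).

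**Figure D4:**
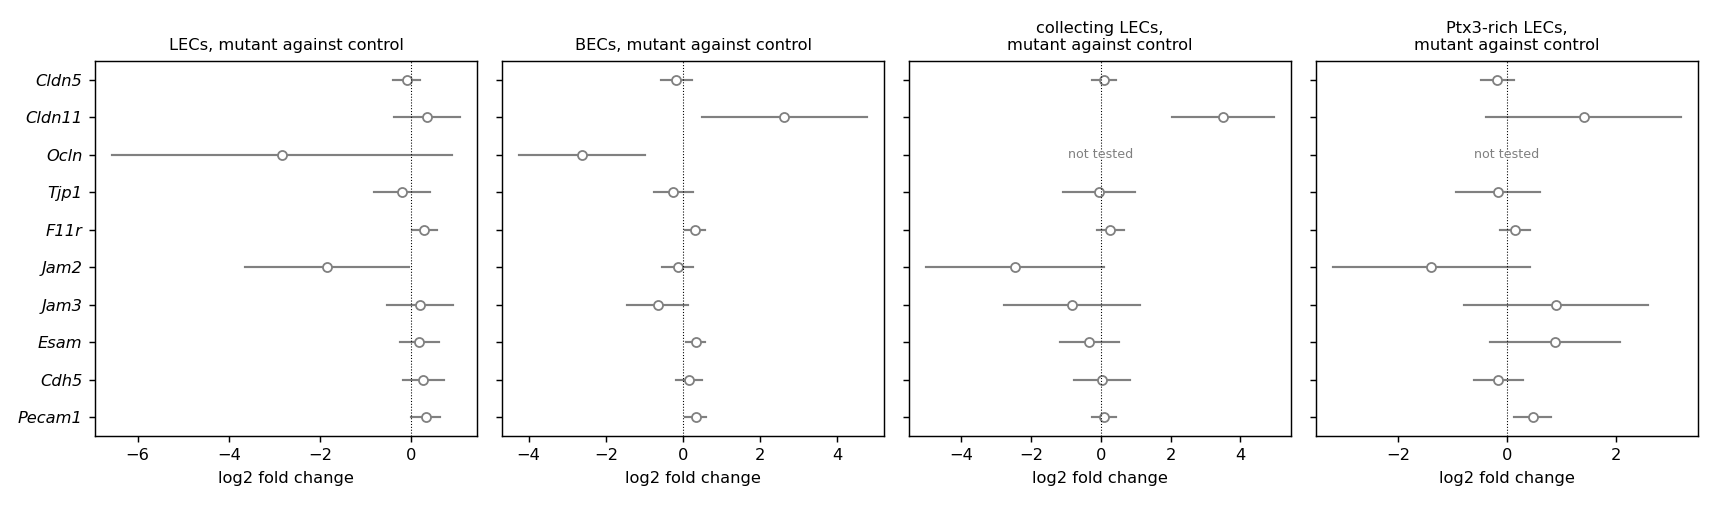
Log2 fold change of mutant against control mice and its 95% confidence interval for each gene in LECs, BECs, collecting LECs and Ptx3-rich LECs, from edgeR (5 mutant and 2 control mice). All points are open since 0 genes passed an adjusted p under 0.05, and Cldn11 lies furthest right in BECs (2.64) and collecting LECs (3.51).

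The genotype effect itself was compared between LECs and BECs with an interaction term. edgeR called 0 of the 10 members and 0.182% of 21979 genes, 0.0227% with a higher and 0.159% with a lower effect in LECs. DESeq2 called 1 member, Cldn11, and 5.29% of the genes. The Cldn11 effect was lower in LECs than in BECs by 3.45 on the log2 scale (SE 1.07, unadjusted p = 0.0121, adjusted p = 0.280, and 0.0150 in DESeq2). Without control 2, whose BECs had 1.21 CPM, the value was -1.49. Jam2 had a value of -1.72 (SE 0.80, adjusted p = 0.479) and Jam3 of 0.88 (SE 0.48, adjusted p = 0.568). The values of the remaining 7 lay between -0.20 and 0.08, that of Ocln with an SE of 8.30.

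Members also varied from cell to cell. In LECs the closest pairs of members were F11r with Cldn5 (mean r 0.21 over 7 mice) and Esam with Cldn11 (0.21, between 0.12 and 0.31 in single mice). In BECs they were Esam with Pecam1 (0.34) and Esam with Jam2 (0.31). Outside the members, the genes most like Cldn5 in LECs were Fxyd6, Gm26728 and Cd9 (mean r 0.35, 0.33 and 0.31), and those most like Esam outside the members were Bcam and Ednrb (0.22 and 0.21). The nearest gene to Pecam1 was Cav1 (0.24), which encodes caveolin-1, and that to F11r was 1700066B19Rik (0.22). Cdh5, Jam3 and Tjp1 had no gene above 0.17, the nearest being Col18a1, Tmem176a and Zbtb20. Cells of 1 plate share a library preparation and their depth, so these correlations describe the cells measured.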

How the data were processed

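Single cells of dermal ear skin had been FACS sorted into 384-well plates and sequenced with Smart-Seq2. According to the submitters' processing notes and the study's methods, reads were aligned to GRCm38 with TopHat2 2.1.1, duplicate reads were removed with SAMtools 0.1.18 and genes were counted with featureCounts, and the authors worked with Seurat 3.1.1 in R 3.5.1. The deposited values were read counts per gene and well, of 46517 Ensembl genes and 92 ERCC spike-ins. The spike-ins took 0.447% of the reads and were left out of library sizes. Smart-Seq2 reads carry no molecular identifiers or strand, so overlapping genes cannot be told apart. The Wilson intervals of shares cover counting error only. The intervals of log2 fold changes come from the edgeR fit over mice and include the spread between mice.

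Wells had to hold 200 genes and 50000 reads, with no more than 10% of reads from mitochondrial genes, and genes had to be found in 3 cells or more. No doublet caller was run. CPM and TPM were computed here from the deposited counts. Cells were summed per mouse and class when there were at least 5, and the sums were tested with edgeR 4.0.16 (filterByExpr, TMM, quasi-likelihood test, Benjamini-Hochberg adjustment over all genes tested) in R 4.3.3, with the mouse as a block where classes of 1 mouse were compared. Mice, and not cells or plates, were the replicates, and mutants 3 and 5 had a second plate each. The SE of a log2 fold change was taken from the F statistic. DESeq2 1.42.0 was an alternative. Shares of cells with a read were taken after each cell was thinned to 50000 reads. Shares between genotypes were compared with exact permutation tests (scipy 1.17.1). The tests were checked on simulated counts.

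The genes and lists were chosen with earlier results of these data known. The text names all 10 members, up to 3 called genes per direction and comparison from the lists (the largest changes among genes whose mean log2 CPM was 3 or higher), and the nearest 1 to 3 of the 3 genes most like each member over LECs by Pearson correlation of log2(CPM + 1) within mice, among 12469 genes found in at least 10% of LECs. One gene that this rule names for Ocln is not reported here. Alternatives were another test, normalization or filter, each mouse left out, first plates, thinned cells, other marker limits, no cycling, contaminating or mixed cells, the plate series and the replicate block. Mixed cells had at least 300 CPM for both marker rules. Cycling cells had reads of at least 3 of 7 cycling genes.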

Additional observations from a re-analysis of the deposited data

Results flagged for a closer look

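In 44 groups of 5 mutant mice, 2 had a sample far from the others by Dixon's criterion, and chance alone gives about 1 in 20 such groups. Jam2 in collecting LECs was at 32.6 CPM in mutant 1 (406 reads over 38 cells) and at 0.931 to 8.77 CPM in the other 4 mutants. Ocln in Ptx3-rich LECs was at 0.382 CPM in mutant 4 (11 reads over 76 cells) and at 0 to 0.0515 CPM in the other 4.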

How the results depend on the processing

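Of 1495 values of members and shares under alternatives, 1414 kept their direction and their side of the threshold, 23 newly passed it, 29 no longer passed and 29 changed sign. A change of sign was counted where either value was called or the shift exceeded the SE. The cause of these changes was not tested. With DESeq2, the number of members called was 1 in BECs (Ocln), beside 11.1% of all genes tested. It was 1 in collecting LECs (2.38% of genes) and 1 for the difference of effects (5.29%). It was 5 for collecting against other LECs (13.7%) and 3 for Ptx3-rich against other LECs (11%). Without mixed cells it was 1 in BECs (Cldn11, with 1.94% of genes), 0 for collecting (0.00639%) and 0 for Ptx3-rich against other LECs (0.371%). Without contaminating cells it was 1 in Ptx3-rich LECs between genotypes (Cldn11, with 5.72% of genes). Without the filter on low counts it was 1 for collecting (1.22% of genes) and 2 for Ptx3-rich against other LECs (1.28%). For the latter it was also 2 with first plates (2.69%), 4 with thinned cells (4.88%) and 0 from 200 CPM of Ptx3 (2.15%). With 1 mouse left out it ranged from 0 to 1 in BECs and in Ptx3-rich LECs, 8 to 9 for LECs against BECs, 1 to 3 for collecting and 0 to 2 for Ptx3-rich against other LECs. The share of Cldn11-rich LECs then differed by 6.72 to 11.2 points.

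Signs changed in log2 values between genotypes in LECs for Cldn11 (-0.42 without mixed cells, -0.43 with the plate series as a covariate, -0.41 on the plate series of the controls), Esam (-0.047) and Jam3 (-0.29), both without mixed cells. In BECs they changed for Cldn5 (0.019 with the covariate, 0.029 on those plates), Cdh5 (-0.020 without contaminating cells) and Tjp1 (0.023 with the replicate block). In collecting LECs they changed for Cldn5 (-0.21 with the covariate, -0.23 on those plates) and Esam (0.26 and 0.24). In Ptx3-rich LECs they changed for Cdh5 (0.049) and Jam2 (0.049) in thinned cells and F11r (-0.062 with the covariate, -0.044 on those plates). The difference of effects became -0.50 for Tjp1 without mixed cells and 0.12 for F11r without contaminating cells. In collecting against other LECs without mixed cells, Cldn11 was 0.54 and Jam3 -0.53, where the median of all genes was -1.17. With 1 mouse left out, LEC values ran from -0.21 to 0.046 for Cldn5 and -3.76 to 1.17 for Ocln, the BEC value of Jam2 from -0.27 to 0.045, collecting values from -0.34 to 0.58 for Cdh5 and -1.39 to 0.058 for Jam3, and the Ptx3-rich value of Jam2 from -2.07 to 0.18. The difference of effects ran from -0.10 to 0.19 for Cdh5 and -0.30 to 0.31 for Tjp1. The collecting comparison between genotypes could not be made without mixed cells.

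The labels number mutants and controls alike, but mice with the same number share only that. Their deviations correlated at -0.05 and 0.03 in LECs and 0.01 and 0.08 in BECs. With the replicate block, 0 members were called in each of the 4 comparisons of genotypes, and the calls over all genes in LECs went from 546 to 3. Without the block of the mouse, 0 members were called for the difference of effects (0.205% of all genes) and 8 for LECs against BECs (20.6%). There was 1 for collecting (1.75%) and 0 for Ptx3-rich against other LECs (0.832%). With 2 controls, 1 of them an untreated C57BL/6J mouse, and 12 to 44 cells in their smaller classes, modest differences were not detectable.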
